A study of Rattus norvegicus with 12 samples.

Results

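The 9 genes of the leukotriene and lipoxygenase pathway described here were Pla2g4a, Alox5, Alox5ap, Lta4h, Ltb4r, Ltc4s, Cysltr1, Alox15 and Hpgds. They were chosen by name: each probe whose gene name in the scanner files was one of these symbols was taken, and all 9 were found, with 1 probe each, among 26612 gene names on the array. Cytosolic phospholipase A2 (Pla2g4a) frees arachidonic acid from membranes, and 5-lipoxygenase (Alox5), with its activating protein FLAP (Alox5ap), turns it into leukotriene A4. Leukotriene A4 hydrolase (Lta4h) then makes leukotriene B4, which attracts leukocytes through the receptor BLT1 (Ltb4r), while leukotriene C4 synthase (Ltc4s) makes the first of the cysteinyl leukotrienes, which act on receptors such as Cysltr1. Alox15 turns the same arachidonic acid into hydroxylated fatty acids. Hpgds makes prostaglandin D2, which also derives from arachidonic acid, though Hpgds does not act on that acid itself. Mast cells, macrophages (Mφs) and granulocytes are known as the main sources of leukotrienes in most tissues.

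Each gene was read on a 1-colour Agilent array in cells that had been dispersed with collagenase from the cervix of adult Sprague Dawley rats, with 1 rat on each of 12 arrays. Rats were either pregnant on day 21 after breeding (D21, before birth) or non-pregnant in proestrus (NP). In each state the dispersed cells of 3 rats were frozen without further steps (whole), and those of 3 other rats were first incubated with the ED1 antibody and passed over magnetic beads to take out Mφs (Mφ-depleted). Depleted cells thus differ from whole cells in the antibody, the beads and the extra handling as well as in Mφs, and no rat gave both. Levels are the log2 of the intensity over the 75th percentile of its array, so that 0 is that percentile, and they compare rats for 1 probe, not 1 probe with another. A probe's rating as well above background is that of the scanner software.

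The Mφ markers as a list were far lower after depletion: their mean log2 level lay between 1.35 and 2.04 on the 6 whole arrays and between -3.21 and -2.19 on the 6 depleted arrays, and Adgre1, Mpeg1 and Mrc1 were not well above background on any depleted array. Not every marker went so far: Cd68 and Cd14 were called lower with depletion in neither state. Both were still well above background among the depleted arrays of each state. Mast cell markers were lower alongside, with mean levels of -2.53 to -1.38 on whole and -5.33 to -3.61 on depleted arrays. Smooth muscle markers were also lower in depleted cells (from 4.29 to 5.44 on whole arrays, from 0.06 to 2.51 on depleted ones). Fibroblast markers were lower too, above all in NP rats, where 7 of 7 were called and their mean level was 5.00 to 5.17 on whole and 0.41 to 1.16 on depleted arrays (median difference 4.24), while in D21 rats 2 of 7 were called and the mean was 4.69 to 5.13 and 3.36 to 4.08 (median difference 0.90). By contrast, immediate-early genes were higher in depleted cells (2.11 to 3.45, against -0.67 to 0.11 in whole ones). Cervix markers such as Esr1 and Pgr and the housekeeping genes were detected in all 4 groups, and none of 5 eosinophil markers was well above background on every array of a group. Scanning took 3 days: the last held every whole array and, of the depleted ones, D21 rat 4 and NP rat 7. The D21 whole arrays shared their slide with NP whole rat 10 alone, so that no slide held D21 whole and D21 depleted arrays together. Fits with slide as a block thus compare D21 whole with D21 depleted cells only through NP arrays. In bulk cells of this kind, fewer cells of a type and less RNA per cell cannot be told apart.

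The readings rest on the probe each gene has on the array, and the probes of Alox5ap, Ltb4r, Ltc4s and Alox5, on which the main differences rest, are printed here, with their positions in the rn4 build as given in the array files. The bases are those of the transcript.
Alox5ap probe, chr12:6246233-6246292, minus strand: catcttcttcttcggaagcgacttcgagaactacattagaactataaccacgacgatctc
Ltb4r probe, chr15:33929244-33929303, plus strand: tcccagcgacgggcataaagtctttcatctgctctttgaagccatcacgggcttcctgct
Ltc4s probe, chr10:35788756-35788815, minus strand: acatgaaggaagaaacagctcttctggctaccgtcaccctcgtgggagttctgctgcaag
Alox5 probe, chr4:152610831-152612409, minus strand: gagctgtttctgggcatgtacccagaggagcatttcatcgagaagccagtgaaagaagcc
All were 60 bases long. The Alox5 probe covered 1579 bases of genome, more than its own length, so that it joins sequence on both sides of an intron. The first 27 bases of the Ltc4s probe could be set against the RefSeq sequence around the start of the gene in the GRCr8 build: 26 matched, and the other was T23C, counted from 1 at the 5′ end of the probe, with the base of the probe first.

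RefSeq promoter sequences of the GRCr8 build were given for Alox5, Lta4h, Ltc4s, Pla2g4a and Ltb4r. Those of Alox5, Ltc4s and Ltb4r are shown, since these genes differed with depletion in D21 rats. Each is the 250 bases before the start of the gene, read in the direction of the gene, with capitals for 2 motifs searched on both strands: the GC box GGGCGG, bound by Sp1-type factors, which reads CCGCCC on the other strand, and the core GAGGAA, bound by ETS factors such as PU.1, which reads TTCCTC there. The motif letters do not overlap each other.
Alox5 upstream, chr4:151251127-151251376, minus strand: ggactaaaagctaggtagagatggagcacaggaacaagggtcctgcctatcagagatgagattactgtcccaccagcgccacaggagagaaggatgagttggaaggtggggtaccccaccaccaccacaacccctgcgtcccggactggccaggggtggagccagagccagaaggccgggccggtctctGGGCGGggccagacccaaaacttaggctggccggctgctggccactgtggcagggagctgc
Ltc4s upstream, chr10:35063595-35063844, minus strand: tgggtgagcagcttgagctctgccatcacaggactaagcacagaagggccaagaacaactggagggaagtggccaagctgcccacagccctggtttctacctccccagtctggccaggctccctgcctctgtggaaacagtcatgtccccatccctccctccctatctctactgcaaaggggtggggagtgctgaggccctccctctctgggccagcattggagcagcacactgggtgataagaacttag
Ltb4r upstream, chr15:33232870-33233119, plus strand: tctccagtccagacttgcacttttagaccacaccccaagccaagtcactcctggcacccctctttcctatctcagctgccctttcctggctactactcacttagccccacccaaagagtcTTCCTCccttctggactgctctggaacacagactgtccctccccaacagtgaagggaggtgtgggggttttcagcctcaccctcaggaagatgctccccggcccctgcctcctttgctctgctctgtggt
The Alox5 window held the GC box at 1 place and no GAGGAA, the Ltb4r window held GAGGAA at 1 place and no GC box, and the Ltc4s window held neither. Among 33469 rat promoters cut to the same length, 30.5% held the GC box and 23.3% held GAGGAA. These are matches of letters and say nothing of binding.

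**Figure D1:**
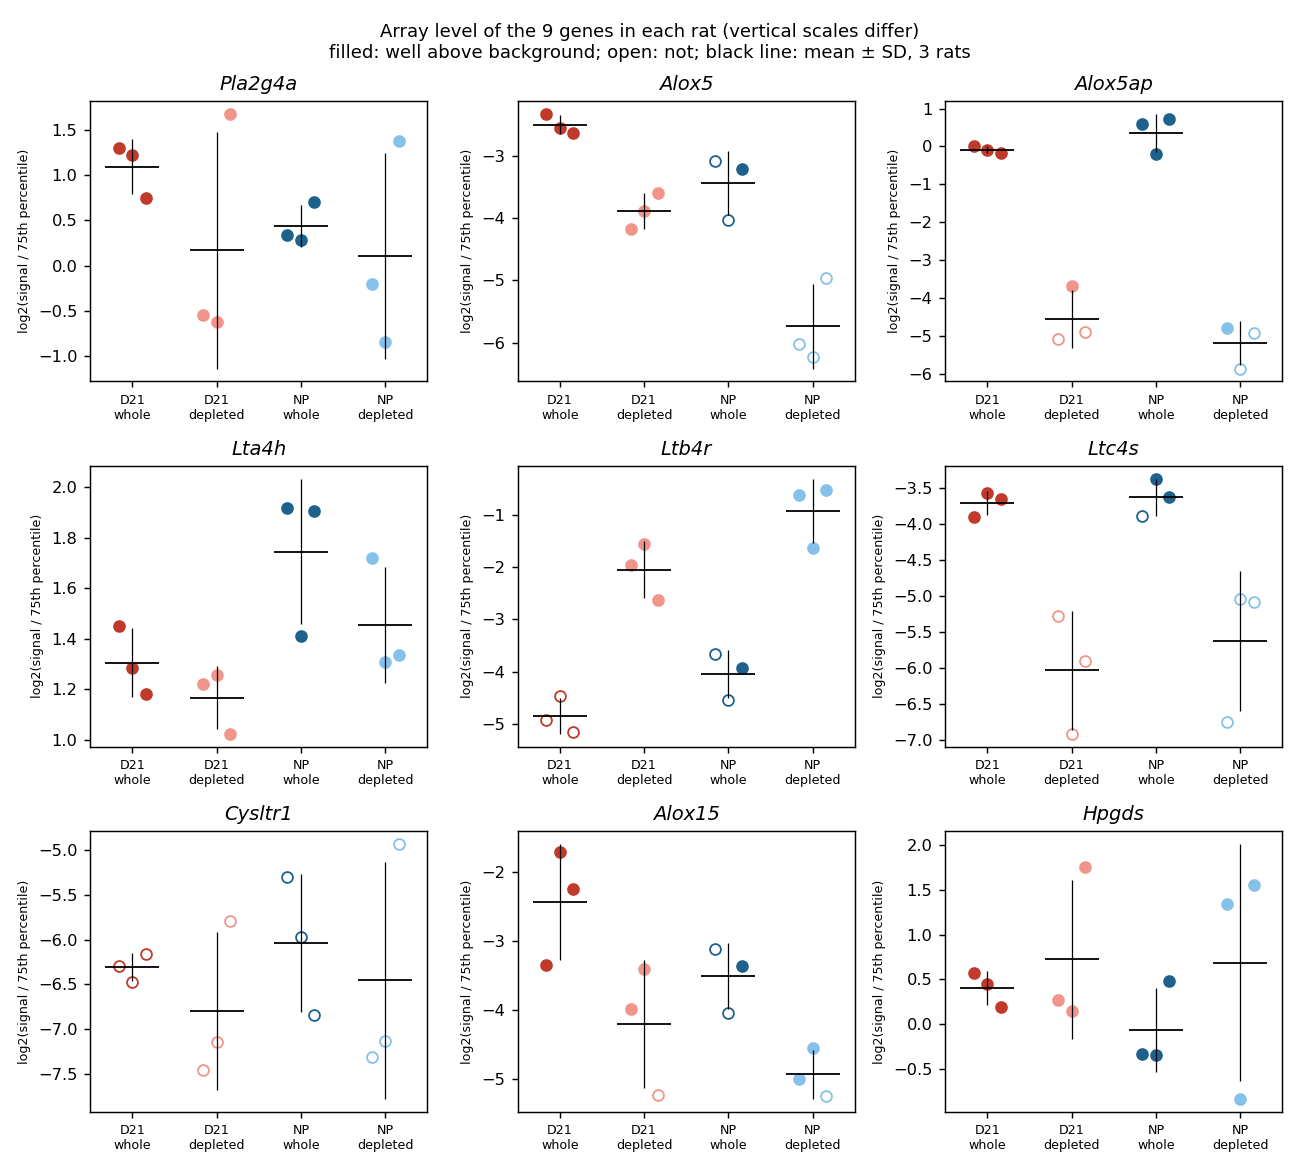
Level of each of the 9 genes on each array, as log2 of intensity over the 75th percentile of the array (vertical axes differ between genes), for D21 whole, D21 depleted, NP whole and NP depleted cervix. Each point is 1 rat, filled where the probe was well above background, and black lines are the mean ± SD of 3 rats. Alox5ap lay at -0.21 or above on every whole array and at -3.68 or below on every depleted array, and Ltb4r had the opposite order.

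In whole cervix, pregnancy on D21 left none of these genes past the threshold, which asks for a change of 2-fold or more together with an unadjusted p below 0.01. Of the 9 genes, 7 cleared background in all 3 rats of D21 or of NP and could be tested with limma, and 0 were called, where 8.5% of all genes tested were. The methods' t-test called 0 as well, and by limma 1 of the 7, Alox5, had an unadjusted p below 0.05. The median log2 difference of the 7 was 0.47, beside -0.08 for all genes. Alox5, Alox15 and Ltc4s passed the filter only through the D21 arrays, which favours higher values in D21, so this median is a description.

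Alox5, the enzyme that starts leukotriene synthesis, came nearest. Its log2 levels were -2.32, -2.55 and -2.63 in D21 rats 5, 6 and 7, and -3.08, -4.03 and -3.22 in NP rats 8, 9 and 10. Each D21 rat was above each NP rat, and 44.3% of all genes tested likewise showed no overlap between these groups. Among the NP rats only rat 10 gave a probe well above background. The difference was 0.94 (SE 0.36, 95% interval 0.16 to 1.73, adjusted p = 0.148 by limma). With quantile normalization it was 1.04 and passed the threshold (adjusted p = 0.0401 by limma), and on the slide that held all D21 whole arrays and NP whole rat 10 it was 0.72.

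Alox15, which adds oxygen at another carbon of arachidonic acid, was at -3.35, -1.70 and -2.24 in D21 rats and at -3.11, -4.03 and -3.35 in NP rats. D21 rat 5 lay among the NP rats, so the groups overlapped, and the difference of 1.07 (95% interval -0.04 to 2.18) did not pass (adjusted p = 0.239 by limma). Pla2g4a was at 1.30, 1.23 and 0.74 in D21 rats, all above the 0.33, 0.28 and 0.71 of NP rats. Its difference of 0.65 came with an interval of -0.74 to 2.05, which takes in the wide spread of the depleted rats through the shared estimate of variance.

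For the other 4 genes tested the intervals covered 0. Alox5ap, which hands arachidonic acid to Alox5, differed by -0.45 (-1.35 to 0.45), Lta4h by -0.44 (-0.93 to 0.05), Ltc4s by -0.08 (-1.14 to 0.98) and Hpgds by 0.47 (-0.85 to 1.79). An interval of this width leaves room for more than a 2-fold change for each but Lta4h, whose interval stayed inside that size. Ltb4r cleared background on 0 of 3 D21 whole arrays and 1 of 3 NP whole arrays and was not tested. The groups overlapped, with NP rat 9 at -4.54 and D21 rat 6 at -4.47. Its NP mean was 1.19-fold higher than the lowest level the D21 arrays could show. That mean takes in NP arrays not well above background, so no least excess is shown.

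**Figure D2:**
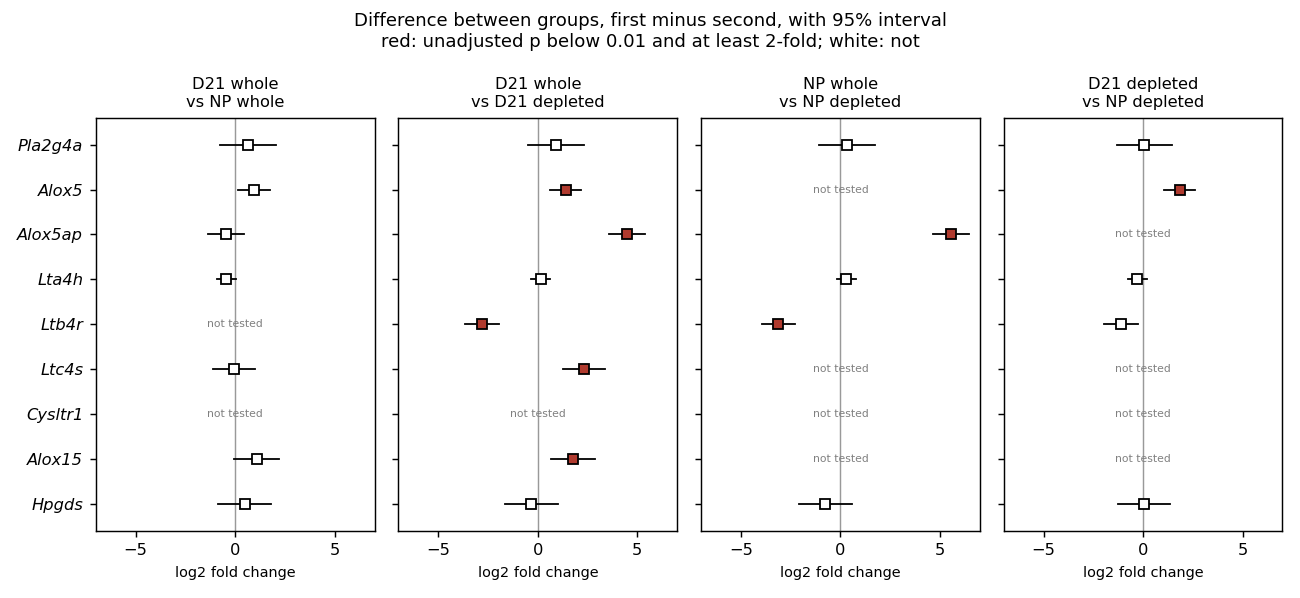
Log2 fold change of the 9 genes in 4 comparisons, first group minus second, with bars for the 95% interval. Red squares passed the threshold and white squares did not. In D21 as in NP rats, removal of Mφs went with less Alox5ap and more Ltb4r, and no gene passed between D21 and NP whole cervix.

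Removal of Mφs went with a lower level of Alox5ap and a higher level of the leukotriene B4 receptor Ltb4r in both states, and in D21 rats also with lower Alox5, Ltc4s and Alox15, while Lta4h, Pla2g4a and Hpgds were called in neither. In D21 rats, 8 of the 9 genes could be tested and 5 were called, 4 higher in whole than in depleted cervix (Alox5ap, Ltc4s, Alox15 and Alox5) and 1 lower (Ltb4r), where 17.8% of all genes tested were called (10% higher and 7.7% lower, and 44.5% without overlap between the groups). In NP rats 5 could be tested and 2 were called, Alox5ap higher and Ltb4r lower, where 24.4% of all genes were called (13.6% higher, 10.8% lower, and 47% without overlap). Their median log2 difference was 1.16 in D21 and 0.29 in NP rats, beside -0.06 and -0.04 for all genes. For genes that passed the filter only through their high group, the filter itself favours a difference in that direction, so these counts and medians are descriptions.

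Alox5ap differed the most among the 9 genes. On whole arrays its log2 level was 0.02, -0.10 and -0.17 in D21 rats and 0.59, -0.21 and 0.72 in NP rats, and on depleted arrays -5.07, -3.68 and -4.90 in D21 rats 1, 2 and 4 and -4.79, -5.85 and -4.91 in NP rats 5, 6 and 7. Nothing lay between -3.68 and -0.21, and in each depleted group only 1 array, D21 rat 2 or NP rat 5, gave a probe well above background. Whole cervix was higher by a log2 difference of 4.47 in D21 rats (SE 0.41, adjusted p = 8.86e-05 by limma) and 5.55 in NP rats (SE 0.41, adjusted p = 4.6e-06 by limma). These sizes rest on depleted arrays of which 2 of 3 were not well above background. With each array held at no less than its lowest signal well above background, a limit added after the values were seen, the excess of whole over depleted cervix was at least 16.9-fold among D21 rats, and among NP rats it was 25.1-fold or more. Among arrays of the last scan day alone the differences were 4.81 and 5.28. With normexp background correction, which adds an offset to each intensity, the D21 difference shrank to 1.43 and missed the threshold (adjusted p = 0.133 by limma), while the NP difference kept its call. Alox5ap was also on a list that the study drew up from these same samples, so its direction is not independent evidence.

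The Mφ markers moved with it: 12 of 14 tested were called higher in whole cervix of D21 rats, with a median log2 difference of 4.85, and 10 of 12 in NP rats, with a median of 5.86. The part of the Mφs in the Alox5ap difference was not tested. The genes whose pattern over the 12 arrays was most like that of Alox5ap, out of 10462 candidates, were Ptpro, Fcer1g and Aif1, with root mean square differences of 0.31, 0.44 and 0.44 on the log2 scale after centring, where Alox5ap itself varied by 2.56. Fcer1g encodes the gamma chain of Fc receptors and Aif1 is a Mφ marker of the list above.

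Alox5 was lower in depleted cervix too, but the step was smaller. In D21 rats the depleted arrays stood at -4.18, -3.89 and -3.61, all well above background and all under the whole arrays, whose lowest was -2.63. The difference was 1.39 (SE 0.36, adjusted p = 0.022 by limma). This call was lost when slide was a block (0.52, adjusted p = 0.832 by limma), though no slide held both groups. It was also lost when scan day was a block (0.86, adjusted p = 0.194 by limma), with normexp (0.16), and without D21 depleted rat 1 (1.25) or D21 whole rat 5 (1.30). Among last-day arrays the difference was 1.10. In NP rats Alox5 cleared background on 0 of 3 depleted arrays (-6.02, -6.23 and -4.97) and 1 of 3 whole arrays, so it was not tested there. The NP whole mean was 2.02-fold higher than the lowest level the depleted arrays could show, but it takes in whole arrays not well above background.

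Ltc4s, the enzyme of leukotriene C4 synthesis, was at -3.90, -3.58 and -3.66 on D21 whole arrays and at -5.28, -6.91 and -5.90 on D21 depleted arrays, where 0 of 3 cleared background. NP arrays looked the same, with -3.90, -3.38 and -3.62 in whole cervix (2 of 3 well above background) and -6.76, -5.05 and -5.09 in depleted cervix (0 of 3). Whole and depleted rats did not overlap in either state. The D21 difference was called (log2 2.32, SE 0.48, adjusted p = 0.00884 by limma), and as a bound whole cervix exceeded depleted cervix at least 1.98-fold in D21 rats. In NP rats, where it was not tested, the same figure was 1.77-fold, from a whole mean that takes in an array not well above background. With normexp the D21 difference was 0.07, and with slide as a block it was 2.23 and no longer called (adjusted p = 0.38 by limma). The methods' t-test did not call it either.

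Mast cells are known to carry much Ltc4s, and of the mast cell markers 5 of 6 tested were called higher in whole cervix of D21 rats (median 3.32), and 4 of 5 in NP rats (median 3.38), with Kit lower there. Cpa3 and Fcer1a were not well above background on any depleted array, and Ms4a2 was not on any array, whole or depleted. Hdc went the other way: it was well above background on no whole array but was so among the depleted arrays of each state. The part of the mast cells, or of the Mφs, in the Ltc4s difference was not tested. The nearest patterns to Ltc4s were those of Cfap300, Abcg3 and Selenop (0.49, 0.49 and 0.50 on the log2 scale, own variation 1.21).

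Alox15 passed the threshold in D21 rats (whole -3.35, -1.70 and -2.24, depleted -3.98, -3.40 and -5.22, difference 1.77, SE 0.51, adjusted p = 0.0315 by limma). The groups did not overlap, but D21 whole rat 5 and depleted rat 2 nearly met. With the limit used for Alox5ap, since 1 of the depleted arrays was not well above background, whole cervix was at least 2.41-fold higher. The call was lost under several settings, among them quantile normalization (1.57), normexp (0.43), array weights (1.57), slide as a block (2.19), a fit on these 6 arrays alone (1.77, adjusted p = 0.0756 by limma), the methods' t-test, and without D21 depleted rat 4 (1.26), D21 whole rat 6 (1.41) or rat 7 (1.68). In NP rats it was at -3.11, -4.03 and -3.35 in whole and -5.00, -4.54 and -5.24 in depleted cervix. These groups did not overlap either, but neither reached background on all 3 arrays, and the difference was not tested.

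**Figure D3:**
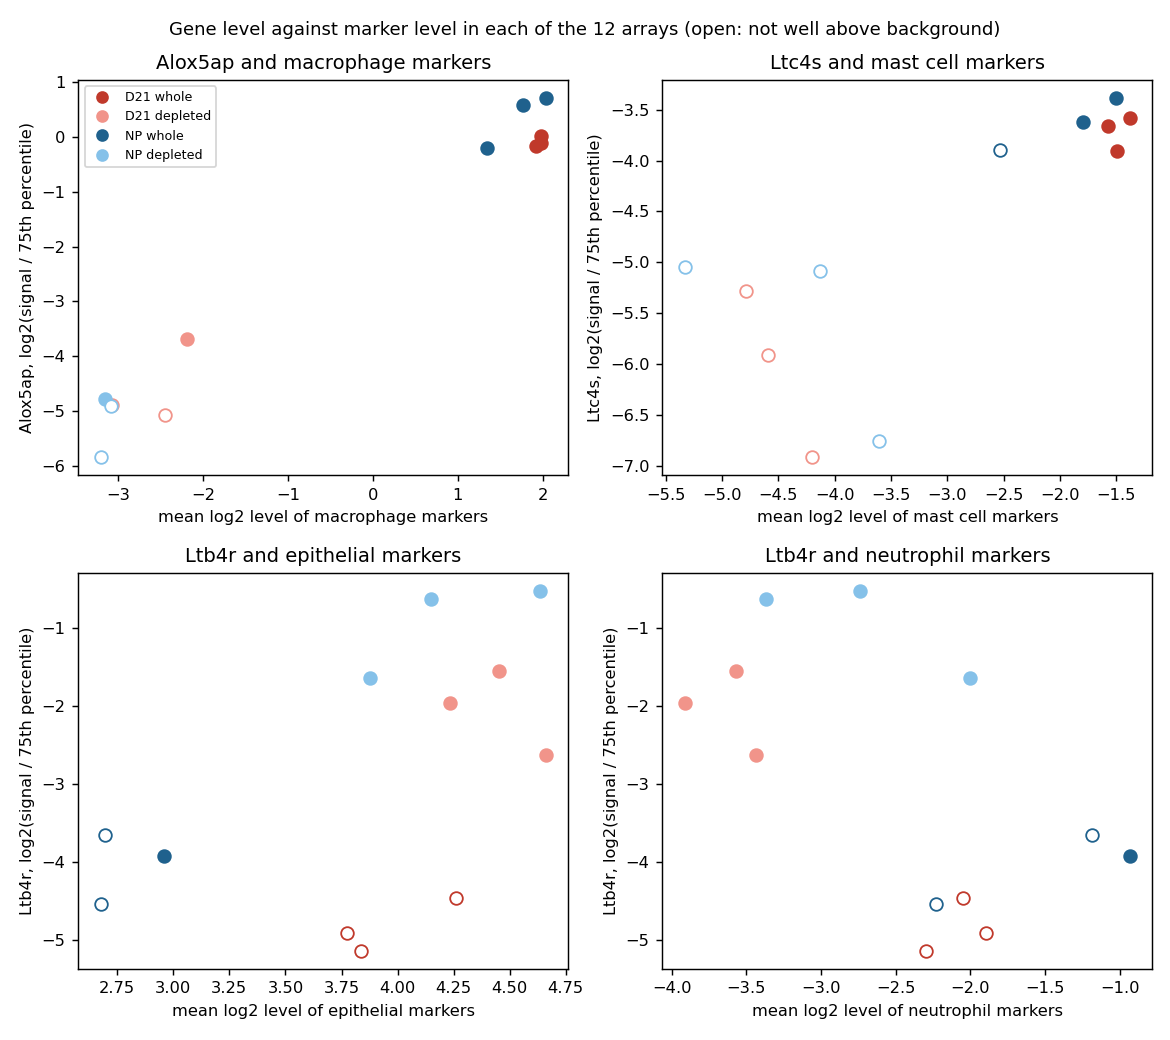
Level of Alox5ap, Ltc4s and Ltb4r (vertical axes) against the mean level of Mφ, mast cell, epithelial and neutrophil markers (horizontal axes) on each of the 12 arrays, all as log2 of intensity over the 75th percentile. Points are open where the gene was not well above background. The whole and depleted arrays form 2 separate groups for Alox5ap and for Ltc4s, and Ltb4r was higher on depleted arrays, where neutrophil markers averaged -3.91 to -2.0, than on whole arrays, where they averaged -2.30 to -0.93.

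Ltb4r, the high-affinity receptor for leukotriene B4, went the other way. Its log2 level was -1.95, -1.56 and -2.63 on D21 depleted arrays and -0.62, -1.64 and -0.52 on NP depleted arrays, well above background on all 6. On whole arrays it was at -4.91, -4.47 and -5.14 in D21 rats, none of them well above background, and at -3.66, -4.54 and -3.92 in NP rats, with only rat 10 above it. Every depleted rat was above every whole rat. Whole minus depleted was -2.80 in D21 rats (SE 0.39, adjusted p = 0.00105 by limma), with depleted cervix at least 4.74-fold higher, and -3.11 in NP rats (SE 0.38, adjusted p = 0.000128 by limma), at least 6.83-fold with the same limit.

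Among last-day arrays the Ltb4r differences were -2.21 and -3.52. Both calls held under the scan-day block and with each single rat left out, and under the slide block at an adjusted p of 0.269 (D21) and 0.00785 (NP) by limma, and the D21 call was lost with normexp (-0.97, adjusted p = 0.299 by limma). Ltb4r is known from neutrophils. Of the neutrophil markers, 1 of 4 tested, Csf3r, was called higher in whole cervix in each state and none lower, with median differences of 1.53 and 1.08. The closest patterns were those of Tp63 (0.38), a marker of basal epithelium, Vsnl1 (0.42) and Wnt10a (0.53), against an own variation of 1.61. Epithelial markers as a list had medians of -0.13 in D21 rats, with 1 called higher and 3 lower, and -1.28 in NP rats, with 5 of 10 lower. In D21 rats the gene called higher in whole cervix was Cldn7, and those lower were Cdh1 and the basal markers Krt5 and Tp63, so that the mean of the list pools members that went both ways. That mean was 3.77 to 4.26 on D21 whole and 4.23 to 4.66 on D21 depleted arrays, and 2.68 to 2.96 on NP whole and 3.88 to 4.63 on NP depleted arrays. The part of the neutrophils or of the epithelium in the Ltb4r difference was not tested.

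Lta4h, which makes leukotriene B4, cleared background in all 12 rats and varied the least of the 9 genes, from 1.02 to 1.92. Whole minus depleted was 0.14 in D21 rats (interval -0.36 to 0.63) and 0.29 in NP rats (-0.20 to 0.78), so that a 2-fold change lay outside both intervals. Its probe was printed at 10 spots on each array, where the other 8 genes had 1.

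Pla2g4a and Hpgds had their widest spread within the depleted groups. Pla2g4a was at -0.55, -0.62 and 1.68 on D21 depleted arrays and at -0.20, -0.85 and 1.37 on NP depleted arrays, against 0.28 to 1.30 on whole arrays. The high rat in each group, D21 rat 4 and NP rat 7, was the one scanned on the last day, with the whole arrays. Whole minus depleted was 0.92 in D21 rats (interval -0.47 to 2.32) and 0.33 in NP rats (-1.06 to 1.72), neither called. Among last-day arrays it was -0.59 and -0.93, and under the scan-day block -0.48 and -1.05, the latter past the threshold (adjusted p = 0.0427 by limma). Without D21 depleted rat 4 the D21 difference was 1.68 and passed as well. The direction for Pla2g4a thus turned with how scan days were treated, and scan day and rat cannot be told apart within a depleted group on the last day.

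Hpgds, the haematopoietic prostaglandin D synthase, was at 0.27, 0.15 and 1.75 on D21 depleted arrays and 1.34, -0.84 and 1.56 on NP depleted arrays, against 0.57, 0.44 and 0.20 in D21 whole and -0.34, -0.34 and 0.48 in NP whole cervix. The groups overlapped in both states, with differences of -0.32 (interval -1.64 to 1.00) and -0.76 (-2.07 to 0.56). Under the slide block these became -2.08 and -1.98, under the scan-day block -1.27 and -1.71, and among last-day arrays -1.35 and -1.63, with no call under either block. Hpgds was well above background on every depleted array. Without NP depleted rat 6, its lowest value, the NP difference was -1.52 and passed the threshold (adjusted p = 0.0342 by limma). Cysltr1, a cysteinyl leukotriene receptor, was not well above background on any of the 12 arrays (-7.46 to -4.93), and no difference can be given for it.

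Whether the effect of depletion depended on pregnancy was tested as an interaction, for 8 of the 9 genes. With limma 0 were called and 0 had an unadjusted p below 0.05, where 7.45% of all genes tested were called. The interaction of Alox5ap was -1.08 (interval -2.36 to 0.20, adjusted p = 0.339 by limma) and that of Alox5 was -0.91 (-2.03 to 0.21). For Ltb4r it was 0.32 (-0.88 to 1.52), for Ltc4s 0.32 (-1.18 to 1.83) and for Alox15 0.34 (-1.24 to 1.93). All of these genes had arrays not well above background in at least 1 group, so that the sizes of their interactions are uncertain. Ltc4s, for one, cleared background on 0 of 3 depleted arrays in each state, and Alox5 on 1 of 3 NP whole and 0 of 3 NP depleted arrays. The intervals are wide, so that calls in D21 and not in NP rats do not show a difference between the states.

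Within depleted cervix, 5 of the 9 genes could be compared between D21 and NP rats, and 1 was called, Alox5, where 7.52% of all genes tested were (5.45% higher in D21). Alox5 passed the filter only through its D21 arrays, which favours a difference in this direction, so its call is a description. Its levels of -4.18 to -3.61 in D21 rats were all above the -6.23 to -4.97 of NP rats, and 17.1% of all genes tested likewise did not overlap. The difference was 1.85 (SE 0.36, adjusted p = 0.0136 by limma), and since no NP array was well above background the D21 level is at least 1.48-fold higher. It was 2.24 among arrays of the first scan day, D21 rat 2 against NP rats 5 and 6. Among those of the last it was 1.37, D21 rat 4 against NP rat 7. The call was lost with normexp (1.35) and with the methods' t-test. Ltb4r was lower in D21 than in NP depleted cervix by a log2 difference of -1.12 (interval -1.96 to -0.28, adjusted p = 0.127 by limma), with D21 rat 2 inside the range of NP rats, and did not pass. This comparison and the earlier ones share their groups, so their values are not independent of each other. Beside Alox5, the mean level of the Mφ markers was -3.08 to -2.19 on D21 depleted and -3.21 to -3.09 on NP depleted arrays. D21 rat 4 (-3.0817) and NP rat 7 (-3.0875) nearly met. Of the Mφ markers, 1 of 7 tested was called (C1qb), with a median difference of 0.47. Fibroblast markers were higher in D21 depleted cells as well (6 of 7 called, median 2.67), and the part of either in the Alox5 difference was not tested.

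Around these 9 genes, 46 further genes of arachidonic acid release, lipoxygenation, leukotriene transport, breakdown and reception were taken as a list, 43 of them on the array. In whole cervix, 4 of the 28 tested were called higher in D21 than in NP rats and 2 lower, with a median of 0.29, where 8.5% of all genes tested were called. Between whole and depleted cervix, 2 were higher and 3 lower of 30 in D21 rats (median -0.24), where 17.8% of all genes were called. In NP rats 4 were higher and 1 lower of 30 (median -0.23), where 24.4% of all genes were called. Within depleted cervix 4 of 28 were higher and 1 lower in D21 rats (median 0.59), where 7.52% of all genes were called. The methods' t-test kept 5 of these 21 calls, those of Dpep2 and Pla2g2a in whole cervix, of Ptgdr between NP whole and depleted cervix, and of Ptgdr and Dpep1 in depleted cervix, and after its adjustment it kept 1. Normexp kept 7 of the 21, slide as a block 11 and scan day as a block 15. The receptors Cysltr2 and Oxgr1 were not well above background on all arrays of any group.

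**Figure D4:**
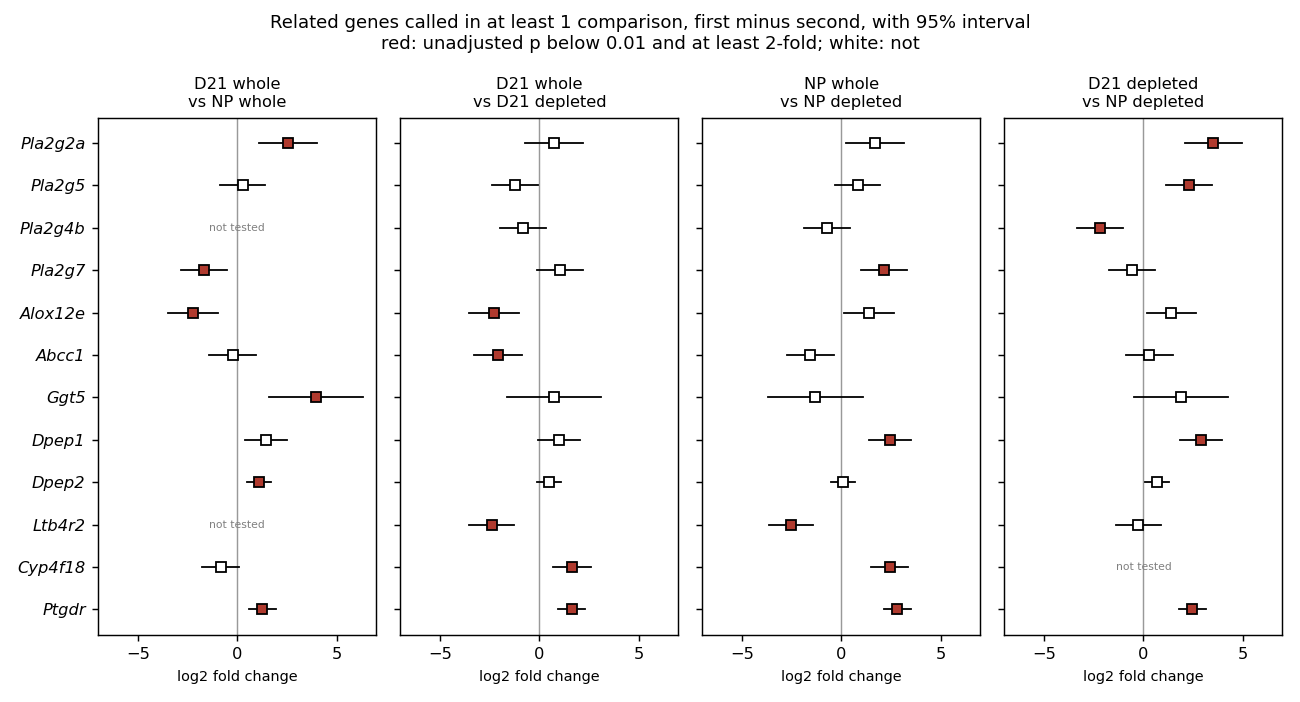
Log2 fold change of the 12 further pathway genes called in at least 1 of 4 comparisons, first group minus second, with bars for the 95% interval. Red squares passed the threshold and white squares did not. Ltb4r2 was lower in whole than in depleted cervix in both states, and Pla2g2a and Ptgdr were higher in D21 than in NP rats in both whole and depleted cervix.

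Among the receptors, Ltb4r2 encodes BLT2, the low-affinity receptor for leukotriene B4, and its probe lay 4940 bases from that of Ltb4r on chromosome 15 of rn4. It was well above background on all depleted arrays (-3.29 to -1.55) and on none of the whole arrays (-5.27 to -3.70), as Ltb4r was in D21 rats. Depleted exceeded whole cervix at least 3.74-fold in D21 rats (whole minus depleted -2.41, adjusted p = 0.00971 by limma) and at least 3.70-fold in NP rats (-2.53, adjusted p = 0.00316). The calls in D21 and NP rats were lost with normexp (-1.01 and -0.86) and with slide as a block (-1.46 and -1.97), and the D21 call under the scan-day block (-2.04). Ptgdr, a receptor for the prostaglandin D2 that Hpgds makes, whose probe the files name Ptgdrl, was at -1.64 to -0.78 in D21 whole, -3.12 to -2.42 in D21 depleted, -2.76 to -1.98 in NP whole and -5.43 to -4.98 in NP depleted cervix. It was called in all 4 comparisons: higher in D21 than in NP rats by 1.26 in whole cells, and higher in whole than in depleted cells by 1.62 in D21 rats and at least 4.33-fold in NP rats, and at least 3.38-fold higher in D21 than in NP depleted cells. With normexp its 4 calls were lost, and the first also without D21 whole rat 5 (1.12), D21 whole rat 7 (1.12) or NP whole rat 10 (1.05). Ptgdr has 3 probes, and with their mean the NP difference between whole and depleted cells was 1.38 and not called, where the probe used gave 2.82. The study listed Ptgdr as higher in D21 whole cervix from these same samples, so this direction is not independent evidence. The fold given there was larger than the 2.40-fold found here.

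Of the phospholipases, Pla2g2a, a secreted form, was higher in D21 rats by 2.55 in whole (adjusted p = 0.0459 by limma) and by 3.52 in depleted cervix (adjusted p = 0.0115), with all 3 D21 rats above all 3 NP rats each time. The call in whole cervix was lost without NP whole rat 8 (2.33) and under the slide block (2.23), and that in depleted cervix with the methods' t-test. Pla2g2a was also on the study's list for whole cervix from these same samples, so its direction there is not independent evidence. Pla2g5, another secreted form, was higher in D21 depleted than in NP depleted cervix by 2.30 and Pla2g4b, a relative of Pla2g4a, was lower by a log2 difference of -2.17. Array weights ended the Pla2g5 call (1.83), and the scan-day block (-1.93) and normexp (-0.35) that of Pla2g4b. Pla2g7, which breaks down platelet-activating factor, was lower in D21 than in NP whole cervix (log2 difference -1.68), with overlapping groups and an adjusted p of 0.0897 by limma, and higher in NP whole than in NP depleted cervix by 2.15. The first Pla2g7 call was lost when any 1 of 9 rats was left out (-1.89 to -1.32), which were all D21 whole and D21 depleted rats, NP whole rats 8 and 10 and NP depleted rat 5, and the second without NP whole rat 8 (1.79), NP whole rat 10 (1.86) or NP depleted rat 7 (1.88). Normexp (-1.06 and 1.47) and the slide block (-2.26 and 2.32) ended both, and the scan-day block and quantile normalization ended the first.

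Genes that take leukotrienes onward differed in both directions. Abcc1, a transporter that exports leukotriene C4, was lower in whole than in depleted cervix of D21 rats (log2 difference -2.09, adjusted p = 0.0226 by limma), a call that was lost with slide (-0.93) or scan day (-0.92) as a block, with the mean of its 3 probes (-1.63), with the methods' t-test and without D21 depleted rat 1 (-1.59), D21 depleted rat 2 (-1.92) or D21 whole rat 6 (-2.0). Cyp4f18, which oxidises leukotriene B4, was higher in whole cervix by 1.65 in D21 and by 2.42 in NP rats, the former not called without D21 depleted rat 1 (1.38) or D21 whole rat 6 (1.49). With normexp neither Cyp4f18 call was kept (0.17 and 1.17), and the D21 call was also lost with quantile normalization (1.33) and under the slide (1.71) and scan-day (1.49) blocks. Ggt5, which turns leukotriene C4 into D4, was higher in D21 than in NP whole cervix by 3.95, with a wide error (SE 1.08, adjusted p = 0.0561 by limma), and Dpep2, a dipeptidase acting on leukotriene D4, by 1.11. The Ggt5 call was lost without NP whole rat 8 (3.18), NP whole rat 10 (3.55), D21 whole rat 5 (3.76) or D21 whole rat 7 (3.64), and that of Dpep2 without D21 whole rat 7 (0.98), under the slide block (0.95) and with normexp (0.91). Dpep1, of the same family, was higher in NP whole than in NP depleted cervix by 2.45 and in D21 depleted than in NP depleted cervix by 2.89, the former not called by the methods' t-test.

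Alox12e, an epidermal-type lipoxygenase whose probe lay 26131 bases from that of Alox15 on chromosome 10 of rn4, was at -4.15 to -3.79 in D21 whole, -2.51 to -0.998 in D21 depleted, -2.56 to -1.12 in NP whole and -4.11 to -1.84 in NP depleted cervix. It was lower in D21 whole cervix than in NP whole cervix (log2 difference -2.24, adjusted p = 0.0444 by limma) and than in D21 depleted cervix (-2.27, adjusted p = 0.0206). Under the slide block both differences kept their size (-2.54 and -2.21) and lost their calls, with normexp they shrank to -0.82 and -1.14, and the methods' t-test called neither. The first call was lost also without NP whole rat 8 (-1.96) or NP whole rat 10 (-2.09), and the second under the scan-day block (-1.77) and without D21 depleted rat 2 (-1.93). Its order across the 4 groups was unlike that of Alox15.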

How the data were processed

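RNA of dispersed cervix cells was read on 12 arrays, 1 for each rat, in 4 groups of 3 that the labels give. The authors deposited the scanner intensity of each spot from Agilent Feature Extraction 9.5.3.1, with background subtracted, trends across the array removed and arrays not yet scaled to each other. A table of ratio values that the authors deposited beside them, used as an alternative, holds each intensity over its array's 75th percentile. Its scale, which it does not name, was found from the scanner intensities of the same arrays.

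Spots of 1 probe were averaged, outlier spots (294 to 648 of 42877 on an array) and controls were left out, and each log2 intensity was set relative to the 75th percentile of its array. Between 44.92% and 61.76% of 30367 probes were well above background on an array, and 17328 probes were renamed through RefSeq accessions. For genes with several probes the brightest was used. Testing was limited to genes rated well above background in all 3 rats of either group. This favours a difference for genes that passed through their high group only, so counts of calls and medians of lists are descriptions. Tests were made with limma 3.58.1 (lmFit and eBayes) in R 4.3.3 on all genes and all 12 arrays, with a mean for each group and Benjamini-Hochberg adjustment over all genes tested, and the fit was tested on simulated data. A call needs a change of 2-fold or more and an unadjusted p below 0.01. Where a group had no array well above background, folds are bounds: the mean of the brighter group over the mean, for each array of the dimmer group, of the lowest signal among probes well above background or the probe's own signal, whichever was higher. The same bound was added, after the values were seen, for members whose dimmer group had only some arrays well above background. Intervals are 95% intervals of the fit. The number of arrays limits the precision, and 3 rats against 3 allow no exact permutation p below 0.1.

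The 4 slides and 3 scan days were tried as blocks. Further alternatives were the methods' t-test, unadjusted or adjusted, limma on 6 arrays or with an adjusted p below 0.05, background correction by normexp (offset 50), scaling by quantiles or by the percentile of probes detected everywhere, a looser or stricter filter on dim probes, averaging the probes of a gene, array weights, the values the authors normalized, and leaving out each rat.

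The members, gene lists and tests were chosen with earlier results of these data known. Genes are named by a rule: the 9 members, those of 46 related pathway genes that were called in at least 1 comparison, and for each member the 3 genes with the smallest root mean square difference over the 12 arrays. The receptors Cysltr2 and Oxgr1, and marker genes named from the lists, were named outside this rule after their values were seen. Of the marker lists, T and NK cell genes had a median log2 difference of 1.50 (D21) and 2.06 (NP) between whole and depleted cervix, B cell genes 0.74 in D21 rats with 1 gene tested, endothelial genes 0.30 and -0.01, and cervix genes 0.55 and 2.72. Summaries and plots were made in Python 3.11.15 (pandas 2.3.3, numpy 2.4.6, scipy 1.17.1, matplotlib 3.10.9).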

Additional observations from a re-analysis of the deposited data

Results flagged for a closer look

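The change of Alox12e with Mφ depletion differed between D21 and NP rats in the test of that difference. It was the 1 call among 30 related pathway genes tested for this interaction, where 7.45% of all genes tested were called. Whole minus depleted cervix was -2.27 on the log2 scale in D21 rats and 1.39 in NP rats, an interaction of -3.66 (SE 0.82, adjusted p = 0.0436 by limma). All 3 D21 whole rats were under all 3 D21 depleted rats. The NP groups overlapped, and the NP difference was itself not called (adjusted p = 0.0856 by limma). With a block the interaction kept its call, at an adjusted p of 0.184 (slide) and 0.062 (scan day) by limma. The interaction lost its call with normexp background correction (-2.05), and leaving out single rats gave values from -4.27 to -3.14, with adjusted p-values of 0.012 to 0.119 by limma. Samples of 3 rats were too few to look for single outlying rats within a group.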

How the results depend on the processing

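Dim probes, slides with few groups and 3 rats in a group set the limits here. Between D21 and NP whole cervix 0 genes were called, and quantile normalization called 1. Between whole and depleted cervix of D21 rats 5 were called, against 3 with the methods' t-test and 0 after its adjustment, 0 with normexp, 1 with a filter on every array, where fewer genes were tested, and 2 under the slide block. In NP rats the 2 became 4 without a filter on background and 0 with a filter on every array. Between depleted groups the 1 became 2 when arrays were scaled by the percentile of probes detected everywhere, and 0 with normexp, the methods' t-test with or without adjustment, or the filter on every array. Leaving out single rats gave, in this order, 0, 4 to 5, 2 to 3 and 1 to 2, and 0 for the interaction. The cause of these changes was not tested where none is named. Scaling by probes detected everywhere moved the median of all genes by 0.19 for D21 whole against D21 depleted and by -0.16 for D21 depleted against NP depleted cervix.

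Among the 9 genes, signs turned only where a difference had not been called. In D21 against NP whole cervix, Ltc4s became 0.29 with normexp and 0.18 with quantile normalization and ranged from -0.21 to 0.048 without single rats, and Hpgds became -0.077 under the slide block. Pla2g4a between whole and depleted cervix became -0.87 (slide) and -0.48 (scan day) in D21 rats and -1.18 (slide) and -1.05 (scan day) in NP rats, the last 2 past the threshold, and in NP rats ranged from -0.14 to 0.96 without single rats. Hpgds in D21 rats ranged from -0.61 to 0.19. Between depleted groups, Pla2g4a was -0.17 with normexp, -0.098 with probes detected everywhere, -0.037 with array weights and -0.69 to 0.70 without single rats, and Hpgds -0.28, -0.13, -0.31 and -0.73 to 0.47. Ltb4r passed there with probes detected everywhere (-1.28) and without NP depleted rat 6 (-1.47) or D21 depleted rat 2 (-1.36). Of the interactions, Pla2g4a ranged from -0.044 to 1.35 without single rats, Ltc4s was -0.72 with normexp, -0.26 with array weights and -0.12 to 0.89 without single rats, Alox15 was -0.32 with normexp, -0.014 with quantile normalization and -0.17 to 0.80 without single rats, and Hpgds was -0.10 under the slide block and -0.0011 to 1.20 without single rats.

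No paired analysis was possible because the groups compared come from different rats, and their numbers carry no pairing.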

Other observations

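Of the members not described above by their pattern, the genes most like Alox5 over the 12 arrays were Socs2, St3gal2 and Cacna1g, with root mean square differences of 0.34, 0.39 and 0.39 on the log2 scale, where Alox5 itself varied by 1.24. Alox15 was followed by Gpr20, Ccdc126 and Eml2 (0.47, 0.58 and 0.61, own variation 1.08), and Hpgds by Sncb, Ngef and Tmprss13 (0.31, 0.34 and 0.38, own variation 0.75). The nearest to Pla2g4a were Nrip3, Os9 and Cd59b (0.28, 0.35 and 0.39, own variation 0.82), and to Lta4h Nup35, Ppil3 and Llph (0.11, 0.12 and 0.12, own variation 0.27). These are likenesses over arrays that share groups, slides and scan days.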
